A study of Mus musculus with 14 samples.

Results

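The response of Atm-deficient mouse tissue labelled as lymph node was measured 30 min after ionizing radiation (IR), in the 2 arrays of irradiated Atm-/- tissue (KO, replicates A and B) and the 3 arrays of untreated Atm-/- tissue (replicates A, B and C). These 5 arrays were chosen by their titles from the 14 of the series, which also held 2 KO arrays from 120 min and 3 untreated, 2 30-min and 2 120-min arrays of Atm+/+ tissue (WT). All groups were total RNA labelled as murine lymph node on one-colour Affymetrix arrays, and both the irradiated KO group and its controls lacked Atm on both alleles. No label states the kind of knockout allele, the strain, the age, the radiation dose or whether animals were pooled. The labels do not say either whether replicates are separate animals, so every p-value below measures only the spread between these arrays, which may be technical.

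The markers went in part against the tissue label. On the 5 KO arrays the median deposited intensity of 11 salivary gland markers was 6603, 9047 and 8138 untreated and 10870 and 9190 at 30 min. For B cells (16 genes) the same median ranged from 115.4 to 157.7. For T cells (17 genes) it ranged from 44.3 to 70.0. Levels of different probe sets are only roughly comparable, but salivary transcripts gave by far the strongest signal of these 3 lists on all 5 arrays, so lymph node below is the label and not an established composition.

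ATM is a protein kinase that is held inactive until a DNA double-strand break is sensed, and it then phosphorylates p53, CHK2 and many other proteins. It also passes the signal from the damaged nucleus to the cytoplasmic kinase that releases NF-kB, a transcription factor family that switches on inhibitors of itself and chemokines. Immediate-early genes such as Fos and Egr1 are transcribed within minutes of many stimuli through factors that already lie on their promoters. Lymph node consists mostly of B and T lymphocytes held in a stroma of fibroblasts and vessels, and lymphocytes are among the cells most sensitive to radiation.

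The 2 irradiated KO arrays agreed less well with each other than any other arrays of the same group. The values are fluorescence intensities, 1 per probe set (a set of short probes for 1 transcript) and array, which the authors had scaled to a common mean. They were compared as quantile-normalized log2(intensity + 32) over 12422 probe sets, so a difference of 1 is a doubling only well above 32 and less than the true ratio below it. Replicates A and B correlated with r = 0.93 (rank correlation 0.883, across probe sets, which are not independent), and their median absolute difference was 0.308. The 3 pairs of untreated KO arrays had r between 0.96 and 0.967 and median differences of 0.197 to 0.217. Same-group pairs elsewhere in the series had median differences of 0.193 to 0.254. A and B lay more than 1 apart for 918 probe sets (7.39%), with A the higher for 480 and the lower for 438, against 231 to 319 probe sets in the untreated KO pairs.

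Most of that disagreement lay on replicate A. Its mean correlation with the other 13 arrays was 0.926, the lowest of the 14, while that of B was 0.961, the highest. Set against untreated A, B and C in turn, replicate A differed by a median of 0.301, 0.314 and 0.305. Replicate B differed from the same arrays by 0.205, 0.226 and 0.197, which is within the range that untreated arrays showed among themselves, apart from the second value. Of the 918 probe sets on which A and B lay more than 1 apart, A alone was outside the range of the other 12 arrays for 635 and B alone for 55. Both were outside it for 140 and neither for 88. Against the mean of the untreated arrays, A differed by more than 1 for 722 probe sets (362 higher, 360 lower) and B for 93 (51 higher, 42 lower).

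**Figure D1:**
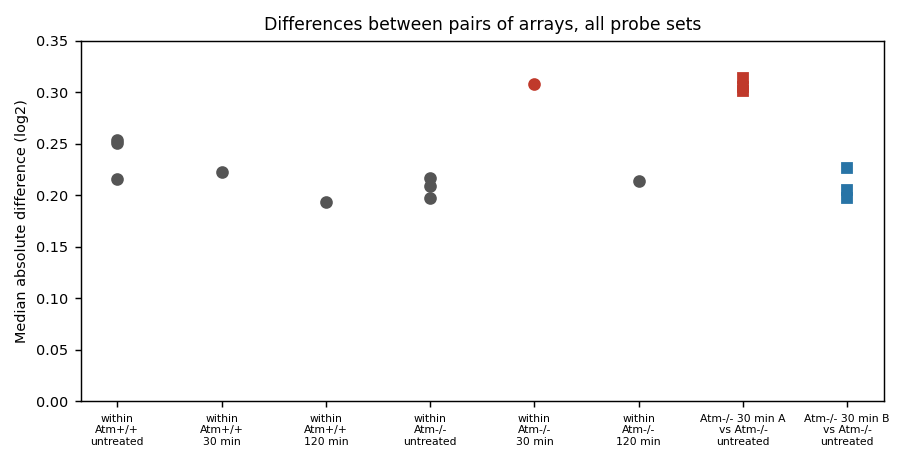
The median absolute difference (log2, y axis) between the 2 arrays of each pair over 12422 probe sets, by kind of pair (x axis), with 1 point per pair. The pair of irradiated Atm-/- replicates lies at 0.308, and replicate A lies 0.301 to 0.314 from the untreated arrays, while replicate B lies 0.197 to 0.226 from them.

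The disagreement was not equal at all intensities. Probe sets were divided by mean intensity into 4 classes of equal number. In the lowest class (1.08 to 23.3), A was the higher by more than 1 for 159 probe sets and the lower for 7. In the third class (67.3 to 181) the balance was 106 to 195, and in the highest class 31 to 48. The median difference between A and B exceeded that of the untreated pairs in every class, for example 0.257 against 0.159 to 0.177 in the highest. Replicate A also had the highest median intensity of the 14 arrays, 80.4 where the lowest was 61, and the smallest share of values under 32, 28.8% against 34.5% on B. The 3' to 5' signal ratio of Gapdh, which rises as RNA is degraded, was 1.07 on A and 0.97 on B, against 0.896, 0.867 and 0.976 on the untreated KO arrays. The same ratio of actin did not set A apart. It was 1.43 on A and 1.24 on B, against 1.24, 1.42 and 1.3 on the untreated KO arrays and 1.58 on untreated WT replicate C. The part of these array measures in the disagreement was not tested.

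Single genes show the size of the differences between the irradiated replicates. Ido1, which encodes an interferon-induced enzyme of tryptophan breakdown, had an intensity of 303.8 on A and 12.4 on B, with 32.7, 81.1 and 36.2 on untreated A, B and C. Bag6, a chaperone gene, had 12.2 on A and 167.6 on B, with 216.1, 261.3 and 147.4 untreated. Kif23, a motor protein of cell division taken from the mitosis list and not among the largest differences, had 202.4 on A and 34.5 on B, with 14.6, 30.0 and 11.8 untreated. In these 3 genes, given as examples, A lay far from the untreated arrays and B within or nearer to their range. Igfals went the other way between the 2 arrays, with 23.4 on A and 258.4 on B around untreated values of 159.9, 44.4 and 115.7.

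No probe set passed the test between untreated and 30-min KO tissue. With limma, fitted to 6 group means over all 14 arrays and adjusted by Benjamini-Hochberg over 12422 probe sets, 0 were called at an adjusted p under 0.05 (0.0%), and the smallest adjusted p was 0.0925. At an unadjusted p under 0.05 there were 1052 (8.47%), with 536 higher (4.31%) and 516 lower (4.15%), where 5% of all probe sets would be 621.1. Both irradiated arrays lay above all 3 untreated ones for 1382 probe sets (11.1%) and below them for 1361 (11.0%). With so few arrays, random order alone separates many probe sets in this way, so these counts alone do not show a response. The median standard error of a change was 0.223, and 87 probe sets had a change of more than 1 in size.

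The size of the changes depended on which irradiated array was used. Over all probe sets, the median absolute change was 0.176 with replicate B as the only irradiated array. It was 0.283 with replicate A as the only one. In both fits the lone array is assumed to vary like the arrays of the other groups, and both share the untreated arrays. At 120 min, against the same untreated arrays, 0 probe sets were called (0.0%) and 841 (6.77%) had an unadjusted p under 0.05. The WT arrays at 30 min gave 9 calls (0.0725%), all higher.

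The 12 genes of smallest p whose irradiated arrays both lay above the untreated ones included a growth factor receptor and a sulfate transporter. They were chosen by that pattern, so their separation is a description. None passed the test, with adjusted p between 0.0925 and 0.354. Met, the receptor for hepatocyte growth factor, had intensities of 13.1, 13 and 17.9 on untreated A, B and C and of 80.6 and 63.9 on 30-min A and B. Both irradiated values were several times every untreated one. Intensities are given as deposited, while changes and counts of non-overlapping groups use the normalized log2 values. The log2 change was 1.15 ± 0.16 (SE) with an adjusted p of 0.0925 in limma, and the 2 arrays gave nearly the same change, 1.15 on each.

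Slc26a2, a sulfate transporter, had 13.3, 18.2 and 13.4 untreated and 112.9 and 73.6 at 30 min, a change of 1.41 ± 0.20 (adjusted p 0.0925, limma). Its WT arrays had 16.7, 16.8 and 13.2 untreated and 39.9 and 43.6 at 30 min, so the 30-min arrays of both genotypes lay above their untreated arrays. Its KO arrays at 120 min had 16.1 and 14.5, among the untreated values. Met was likewise at 15.9 and 14.1 at 120 min. Its WT arrays had 25.7, 11.3 and 6.6 untreated and 10.9 and 11.2 at 30 min.

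Barx1, a homeobox transcription factor of stomach and tooth development, had 12.2, 14.6 and 16.1 untreated and 91.2 and 63.3 on the irradiated arrays, a change of 1.23 ± 0.20 (adjusted p 0.17, limma). In WT it had 64.6, 36.6 and 52.3 untreated and 19.1 and 16.4 after irradiation. Its response in KO exceeded that in WT by 1.91 with an adjusted p of 0.0338 in limma. It was the only called difference in which the KO response was the higher, 1 of 12422 probe sets (0.00805%). Of the 14 fits with 1 array removed, 4 kept the call (adjusted p 0.0237 to 0.242), as did 4 of 11 other alternatives. Its probe set carries the suffix _f_at, which by the platform's naming marks probes that can match related sequences, so the gene assignment is uncertain.

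Rasal1, which encodes a protein that switches off Ras, had 125.3, 122.7 and 150.0 untreated and 280.8 and 265.5 at 30 min (change 0.91 ± 0.15, adjusted p 0.226, limma). Sfpq, a splicing factor that also binds at DNA breaks, had 67.4, 85.6 and 78.0 untreated and 156.5 and 155.4 at 30 min. At 120 min its KO arrays were again above every untreated value, at 162.3 and 120.4 (120-min change 0.68). Nudt5, a hydrolase of ADP-ribose, had 12.9, 10.2 and 20.5 untreated and 56.0 and 69.1 at 30 min. The other 6 were Dnajc11, Commd3, Tbcel, Cmip, Klf3 and Ost4, with changes of 0.86 to 1.22. Replicate A lay farther from the untreated mean than B in 10 of the 12. In 8 of the 12 all untreated intensities were below 32, where the log2(intensity + 32) scale understates a change. Large differences between the irradiated replicates at the lowest intensities mostly had A above B, although the median of A minus B there was only 0.06. In the lowest class of mean intensity, up to 23.3, A was the higher by more than 1 for 159 probe sets and the lower for 7. In the next class, up to 67.2, the balance was 184 to 188. The part of this excess on A in the 12 rises was not tested.

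The 12 genes of smallest p that lay lower on both irradiated arrays all had an adjusted p of 0.354. Kcnk1, a potassium channel, had 744.1, 870.5 and 841.7 untreated and 417.2 and 383.0 at 30 min (change -0.97 ± 0.21). Its KO arrays at 120 min were also low, at 330.9 and 401.3, and WT had 528.2, 601.3 and 616.1 untreated and 635.4 and 406.8 at 30 min. The KO values at both times thus lay below all 3 untreated KO arrays, while the WT values at 30 min lay on both sides of theirs. Casp2, the caspase most often linked to DNA damage and spindle defects, had 112.8, 136.1 and 97.5 untreated and 53.3 and 56.3 at 30 min (change -0.78 ± 0.16). Its WT arrays had 120.2, 133.0 and 104.7 untreated and 81.5 and 85.8 at 30 min, lower as well, with a WT change of -0.35. A further Casp2 probe set, the one used for the apoptosis list, had 229.9, 270.8 and 308.5 untreated and 252.9 and 283.2 at 30 min, a change of -0.01, so the 2 probe sets disagree.

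Slc7a9, a subunit of a cystine transporter, had 72.8, 53.3 and 61.1 untreated and 16.6 and 10.8 at 30 min, a change of -0.998 ± 0.19. Tubb4b, a beta-tubulin, had 148.6, 128.5 and 129.8 untreated and 39.1 and 48.2 at 30 min, a change of -1.16 ± 0.26. Its KO arrays at 120 min had 152.8 and 70.0. In WT, Tubb4b had 74.8, 66.0 and 73.5 untreated, all below the untreated KO values, and 123.6 and 97.8 at 30 min. Trafd1, a negative regulator of innate immune signalling, had the change of largest size, -1.31 ± 0.31, from 122.4, 78.3 and 138.1 untreated to 13.3 and 36.7. In WT, Trafd1 had 43.4, 75.4 and 18.2 untreated and 92.4 and 115.2 at 30 min, and the difference of response was -2.21 with an adjusted p of 0.309 in limma. The other 7 were Sugt1, Vmn2r26, Prss39, Rttn, Col12a1, Stac and C1qtnf1, with changes between -0.74 and -1.05. Among the 12 lower genes, A lay farther from the untreated mean than B in 6. The probe sets of Casp2, C1qtnf1 and Trafd1 also have the suffix _f_at, and those of Sugt1 and Sfpq have _s_at, which marks possible matches to several transcripts.

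Other probe sets for the same genes often did not follow. Of the 24 genes, 11 had further probe sets, 16 in all, of which 10 lay on the same side of 0 and 6 on the other, with 2 at an unadjusted p under 0.05. Barx1 had a change of -0.34 on its other probe set, against 1.23. Trafd1 had 0.01 against -1.31, Col12a1 0.01 against -0.87 and Klf3 0.11 against 1.14. Sfpq had 4 further probe sets, with changes of 0.80, 0.52, -0.16 and -0.57.

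**Figure D2:**
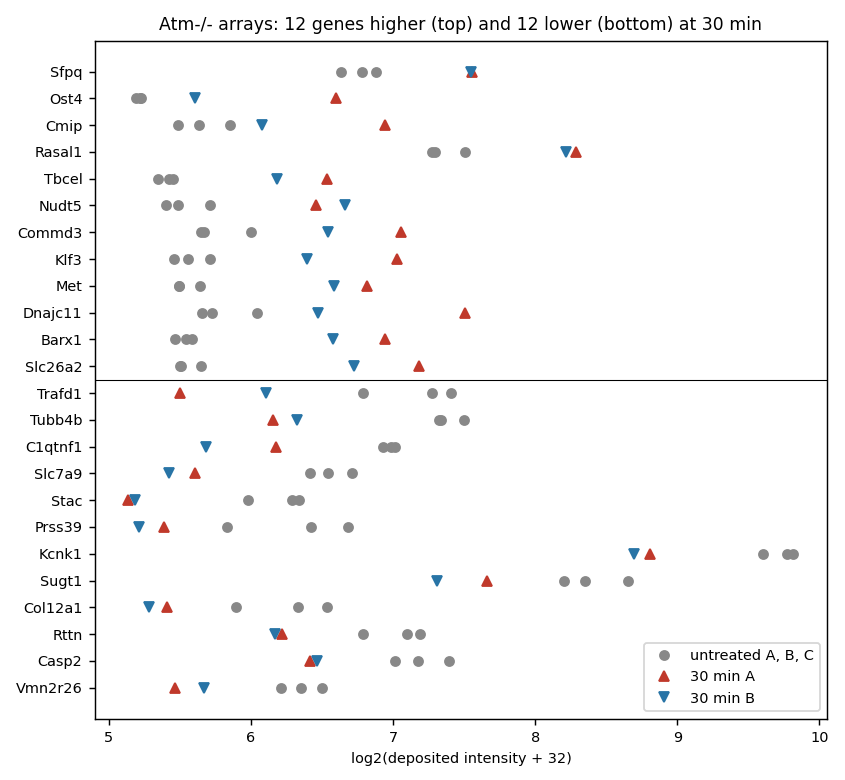
Values of 24 genes on the 5 Atm-/- arrays, as log2(deposited intensity + 32) (x axis) for each gene (y axis), with grey circles for untreated A, B and C, upward triangles for 30 min A and downward triangles for 30 min B. The genes were chosen because the groups do not overlap, so what can be read is how far A and B agree: closely in Met, Sfpq and Rasal1, and poorly in Dnajc11, Ost4 and Cmip.

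The 12 higher genes were called in none of their cases with B alone (adjusted p 0.418 to 0.888) and in 9 with A alone. Of the 12 lower genes 0 were called with B alone (0.663 to 0.956) and 4 with A alone. All 24 were chosen with both irradiated arrays, B included, beyond the untreated ones, so these fits give no independent support. Met was called in 1 of 14 fits that left out 1 array (adjusted p 0.0204 to 0.424) and in 1 of 12 other alternatives (0.00313 to 0.839). Slc26a2 was called in 3 of 14 such fits (0.0104 to 0.541) and in 0 of the 12 alternatives.

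The targeted gene gave no check of the genotype. The only named probe set for Atm had 44.0, 7.5 and 24 on the untreated KO arrays and 7.5 and 11.8 at 30 min, with 54.8, 34.5 and 8.1 on the untreated WT arrays. The KO and WT intensities overlapped and lay near or below 32, and no label says whether its probes lie in a deleted part.

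The early transcripts that rose in irradiated WT tissue were near their untreated level in irradiated KO tissue. The 9 probe sets called in WT at 30 min belong to 8 genes: Fos, Egr1 and Ier2, which are immediate-early genes, Dusp1, a MAP kinase phosphatase, Zfp36, a protein that destabilises cytokine mRNA, Nfkbia, the inhibitor of NF-kB, the chemokine Cxcl1 and Ier3, a stress-induced survival gene. Their WT changes were 1.17 to 2.73, and their KO changes -0.32 to 0.37, above 0 for 5 probe sets and below 0 for 4. For all 9 the upper limit of the KO change's 95% confidence interval, at most 0.73, lay below the WT change. That comparison leaves out the error of the WT change, which the difference of response includes. The KO minus WT difference was called for 5 of the 9, among 5 probe sets of 12422 called lower (0.0403%) and 6 called in all (0.0483%). These genes were chosen because they rose in WT, and the difference of response uses those WT arrays too, so the independent measurement here is the KO change.

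Nfkbia had KO intensities of 574.1, 579.5 and 542.3 untreated and 575.4 and 598.6 at 30 min. The groups are hardly separated, since A fell within the untreated range and B just above it. In WT it went from 536.8, 622.0 and 505.7 to 1504.3 and 1929.9. The KO change was 0.07 (95% confidence interval -0.25 to 0.39) and the difference of response -1.43 ± 0.21 (adjusted p 0.0338, limma). A further Nfkbia probe set had 340.4, 242.6 and 335.1 untreated KO and 365.7 and 296.1 at 30 min, a change of 0.13. Its WT change was 0.98 (adjusted p 0.186, limma) and its difference of response -0.85 (adjusted p 0.814, limma), and neither passed. Cxcl1 had 56.9, 47.7 and 16.2 untreated KO and 25.1 and 33.8 at 30 min, while WT went from 31.5, 59.1 and 49.3 to 391.6 and 597.6. Its KO change was -0.16 (-0.78 to 0.46), and the difference was -2.89 (adjusted p 0.0338). Its other probe set gave a difference of -2.90 with an adjusted p of 0.0713, which did not pass.

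Dusp1 had 251.9, 207.7 and 231.3 untreated KO and 351.8 and 248.7 at 30 min, where A was above all untreated arrays and B within their range. Its WT arrays went from 227.9, 198.2 and 246.9 to 1211.2 and 1142.0. The KO change was 0.34 (-0.04 to 0.73), and at 120 min the KO arrays lay below all untreated ones, at 154.2 and 148.8. The difference of response at 30 min was -1.87 ± 0.25 (adjusted p 0.0315, limma). The 250 bases before the RefSeq transcription start (GRCm38.p6, table of promoters) are printed for these 3 genes because NF-kB and CREB, the factor of the CRE site, are known routes of early induction. Nfkbia lies at chr12:55492648-55492897 on the minus strand, Cxcl1 at chr5:90890995-90891244 on the plus strand and Dusp1 at chr17:26508473-26508722 on the minus strand, each written 5′ to 3′ along its gene, with matches to GGGANNNNCC (kB-like) or TGACGTCA (CRE) in capitals.
Nfkbia: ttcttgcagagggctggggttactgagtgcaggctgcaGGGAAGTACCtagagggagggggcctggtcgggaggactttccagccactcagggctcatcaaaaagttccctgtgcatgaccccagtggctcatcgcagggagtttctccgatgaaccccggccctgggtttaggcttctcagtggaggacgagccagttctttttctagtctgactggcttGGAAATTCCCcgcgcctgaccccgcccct
Cxcl1: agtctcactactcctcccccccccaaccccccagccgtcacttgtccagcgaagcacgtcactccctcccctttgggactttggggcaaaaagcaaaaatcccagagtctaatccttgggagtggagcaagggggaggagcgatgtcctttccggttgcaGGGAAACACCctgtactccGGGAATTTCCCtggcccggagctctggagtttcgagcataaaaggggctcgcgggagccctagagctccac
Dusp1: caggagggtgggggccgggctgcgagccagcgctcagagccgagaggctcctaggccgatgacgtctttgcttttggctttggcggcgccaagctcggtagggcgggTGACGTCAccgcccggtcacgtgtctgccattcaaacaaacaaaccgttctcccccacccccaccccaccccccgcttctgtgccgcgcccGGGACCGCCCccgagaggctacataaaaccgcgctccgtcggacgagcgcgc

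The kB-like pattern was searched on both strands. Nfkbia held 2 matches, starting at -212 and, on the opposite strand, at -29 from the transcription start. Cxcl1 held 3, at -90 and at -71 and -70, where the last pair overlap on opposite strands. Dusp1 held 1, at -52, and a palindromic CRE at -143. Of 32851 RefSeq promoters of this length, 17.6% held a kB-like match and 1.55% a CRE, so a kB-like match alone is common. In these 250 bases Fos and Ier3 held no exact match to either pattern or to a CArG box (the serum response element core). Zfp36 held 1 kB-like match and a CArG box. Bases farther upstream and variants of these patterns were not searched, so such sites may still be present. A match is a description of these letters and not a measured binding site.

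Ier3 had 229.5, 259.6 and 212.1 untreated KO and 257.5 and 222.5 at 30 min, fully within the untreated range. Its WT arrays went from 221.3, 215.4 and 299.1 to 1469.3 and 1329.8. The KO change was 0.04 (-0.32 to 0.40), and the difference of response was -2.31 ± 0.24 (adjusted p 0.00565, limma). Fos had 44.1, 70.9 and 32.8 untreated KO and 66.5 and 24.6 at 30 min, with A inside and B below the untreated range. WT Fos went from 49.0, 46.1 and 42.1 to 416.1 and 416.0, and the difference of response was -2.63 ± 0.29 (adjusted p 0.00565, limma). A further Fos probe set was below 32 on all 10 of these arrays and had changes of -0.06 in KO and 0.15 in WT.

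Egr1 and Ier2 lay slightly higher on both irradiated KO arrays, on the probe sets called in WT. Egr1 had 126.0, 102.9 and 119.1 untreated and 181.3 and 136.5 at 30 min, a change of 0.37 (0.05 to 0.68) with an unadjusted p of 0.0258 and an adjusted p of 0.546 in limma. A further Egr1 probe set had 4.1, 26.1 and 23.8 untreated and 47.6 and 16.1 at 30 min, with A above the untreated range and B within it. Its changes were 0.33 in KO and 0.02 in WT. Ier2 had 198.6, 205.9 and 199.8 untreated and 247.9 and 244.5 at 30 min, a change of 0.25 (-0.06 to 0.55). The called probe sets of Egr1 and Ier2 were the only 2 of the 9 whose irradiated KO arrays both lay above the untreated ones, 11.1% being the share over all probe sets. Their WT changes were 1.28 and 1.17, and their differences of response, both -0.92 after rounding, had an adjusted p of 0.421 in limma. Zfp36 had 202.0, 204.8 and 232.4 untreated KO and 207.1 and 174.7 at 30 min. Its difference of response was -1.84 with an adjusted p of 0.341, so a difference was not shown for these 3 genes.

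**Figure D3:**
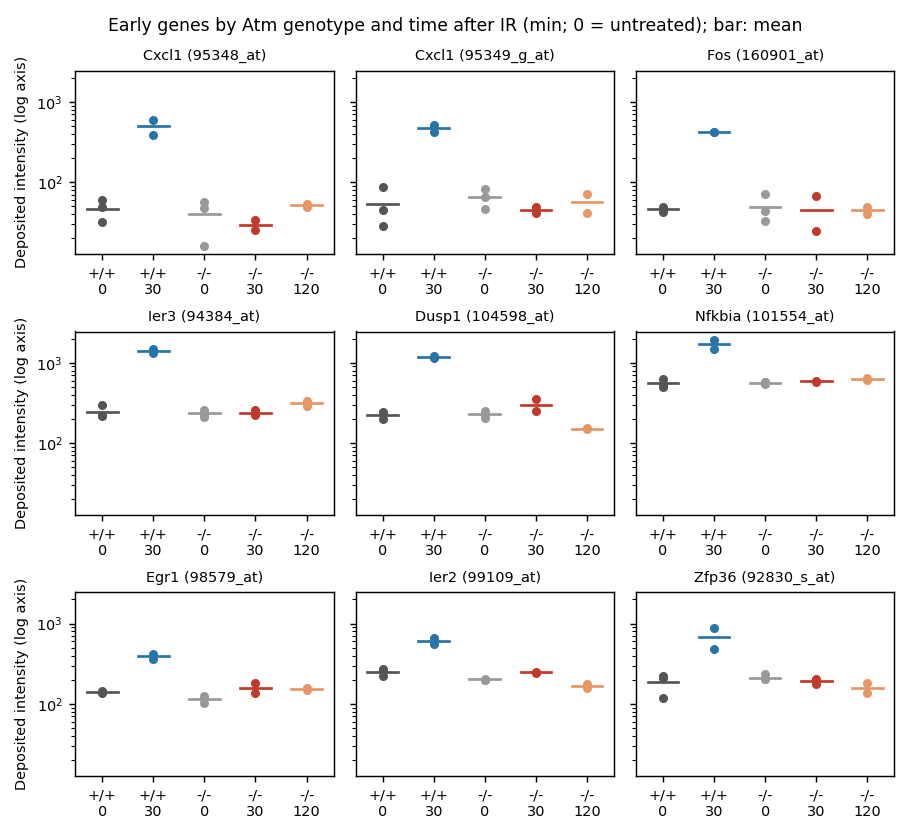
Deposited intensity (y axis, log scale) of the 9 probe sets called in Atm+/+ tissue at 30 min, by Atm genotype and minutes after IR (x axis, 0 = untreated), with 1 point per array and a bar at the group mean. In every panel the Atm+/+ arrays at 30 min lie above all others, while the Atm-/- arrays at 30 min lie within or near the range of the untreated ones (Ier3: 257.5 and 222.5 against 212.1 to 259.6).

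The called differences were not equally stable. Ier3 was called in 13 of 14 fits that each left out 1 array and lost without WT 30-min replicate A (adjusted p 0.0543), and Fos in 12, lost without either WT 30-min array (up to 0.0619). Both were called in all 11 other alternatives. Dusp1 and Cxcl1 were each called in 4 of 14 and 7 of 11, and Nfkbia in 1 of 14 and 6 of 11, with adjusted p up to 0.183, 0.236 and 0.245 when 1 array was left out. Their signs did not change in any of these fits. Without KO 30-min replicate A, Ier3, Fos and Dusp1 kept their calls and Cxcl1 and Nfkbia did not.

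The 7 further genes known as radiation or p53 targets, named because earlier results gave them as later WT targets, did not pass the test in KO at 30 min. Cdkn1a, which encodes the cell cycle inhibitor p21, had 67.2, 91.5 and 81.7 untreated and 95 and 84.3 at 30 min, then 194.1 and 177.5 at 120 min. On this probe set the 30-min values overlapped the untreated ones and the 120-min values did not. Its other probe set had 48.0, 49.0 and 41.5 untreated, 53.4 and 69.2 at 30 min and 119.3 and 46.6 at 120 min. Its 30-min intensities lay above all untreated ones, though not on both arrays by normalized value. At 120 min 119.3 lay above them and 46.6 within their range, so the 2 probe sets disagree. Mdm2, the ubiquitin ligase of p53, had 187.0, 113.8 and 107.3 untreated and 143.3 and 168.1 at 30 min, within the untreated range, then 227.6 and 344.1 at 120 min. Phlda3, a p53 target that restrains Akt, had 179.7, 205.1 and 148.7 untreated, 225.1 and 205.3 at 30 min, just above them, and 348.6 and 344.4 at 120 min. None of the 120-min changes was called. Junb, an immediate-early gene, had 50.7, 11.0 and 65.5 untreated and 111.3 and 74.9 at 30 min on 1 probe set (change 0.83 ± 0.39, adjusted p 0.586, limma), but 192.1, 153.2 and 181.8 untreated and 195.7 and 115.1 on the other, so the 2 probe sets disagree. Ccng1, Btg2 and Atf3 had changes of -0.34, -0.21 and -0.37 on their probe sets of highest mean, with adjusted p of 0.702, 0.888 and 0.702.

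The wider lists were read against all 8251 genes with 1 probe set each (the one of highest mean), whose median change was 0.0033, with 950 (11.5%) lying above all untreated arrays on A and on B and 884 (10.7%) lying below them. No member of any of the 26 lists was called in KO at 30 min. For 19 of the 26 lists the medians on A alone and on B alone lay on opposite sides of 0, so no direction is given for these. Among 33 immediate-early genes measured the median change was 0.04, with 7 higher on both arrays and 1 lower. They included Jund, with 1650.6, 1546.0 and 2002.9 untreated and 3234.9 and 2463.9 at 30 min (change 0.60, unadjusted p 0.0222, adjusted p 0.537, limma), and Klf10, with 247.1, 274.3 and 303.7 untreated and 433.0 and 400.8 at 30 min (change 0.57). Both encode transcription factors, and their WT changes were 0.02 and 0.48. The list's median was 0.14 on A and -0.01 on B.

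Among 34 NF-kB targets the median was 0.05, with 6 higher and 1 lower. Cd40, a receptor of antigen-presenting cells, had 8.2, 13.3 and 21.1 untreated and 59.5 and 31.3 at 30 min, and Ccl5, a chemokine, had 168.0, 115.5 and 158.6 untreated and 45.8 and 135.7. Neither passed the test. Among 24 p53 targets the median was 0.10, with 4 higher and 1 lower. Rrm2b, the p53-induced subunit of ribonucleotide reductase, had 33.3, 16.7 and 51.3 untreated and 110.3 and 76.1 at 30 min, a change of 0.97 ± 0.26 (adjusted p 0.394, limma). The Rrm2b probe set has the suffix _f_at, so its gene assignment is uncertain. The p53 median was -0.01 with B alone, so its sign depended on A.

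Among 30 apoptosis regulators the median was -0.18, with 1 higher and 5 lower, but -0.01 on A alone and -0.09 on B alone. Bik, a pro-apoptotic BH3-only gene, had 97.0, 85.3 and 88.9 untreated and 14.7 and 39.0 at 30 min, a change of -1.05 ± 0.45 (adjusted p 0.552, limma). Bcl2l11, which encodes the related BIM, had 130.6, 175.9 and 141.9 untreated and 73.1 and 129.1 at 30 min. Among 29 damage sensors and checkpoint kinases the median was -0.07, with 3 higher and 4 lower. Chek1, the kinase downstream of ATR, had 42.4, 60.3 and 44.9 untreated and 8.7 and 25.9 at 30 min, while Brca2 had 53.8, 11.6 and 48.5 untreated and 197.8 on A but 17.2 on B.

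Among 24 glucocorticoid-responsive genes the median was 0.13, with 5 higher and 0 lower. Pik3r1, the regulatory subunit of PI 3-kinase, had 154.8, 101.5 and 131.0 untreated and 212.0 and 278.6 at 30 min (change 0.78, adjusted p 0.451, limma). Ddit4, an inhibitor of mTOR, had 492.3, 259.1 and 536.5 untreated and 535.5 and 720.9 at 30 min, where A lay just below untreated C by deposited intensity. By normalized value Ddit4 is among the 5 higher genes. Dusp1 is in this list as well as in the immediate-early list. For heat shock and stress (30 genes) the median was 0.00, with 4 higher and 4 lower. The 28 interferon-stimulated genes had a median of -0.05 (0.05 on A and -0.09 on B), with 3 higher and 5 lower. The changes of largest size were 0.64 for Eif2ak2, 0.57 for Ifit2 and -0.57 for Isg15, so they went both ways. Isg15 had 155.9, 115.5 and 134.4 untreated and 69.4 and 99.4 at 30 min.

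The cell cycle lists differed between the 2 irradiated arrays. The 30 genes of mitosis and G2/M had a median of -0.22 on A and 0.16 on B, and the 40 genes of G1/S and replication -0.17 on A and 0.04 on B. Cdk1, the kinase of mitotic entry, had 135.6, 132.0 and 122.5 untreated, 23.2 on A and 118.1 on B. The 54 oxidative phosphorylation genes had a median of -0.14 (-0.12 on A and -0.06 on B), with 4 higher and 11 lower. Ndufa2, a subunit of complex I, had 342.7, 418.6 and 364.0 untreated and 166.1 and 332.1 at 30 min, so both irradiated arrays were lower, A by more. The 31 cytosolic ribosomal protein genes had a median of -0.01. The 25 anion transporters and growth factor receptors, a list built around Slc26a2 and Met with their values known, had a median of 0.08 (0.11 on A and 0.03 on B), with 5 higher and 3 lower.

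**Figure D4:**
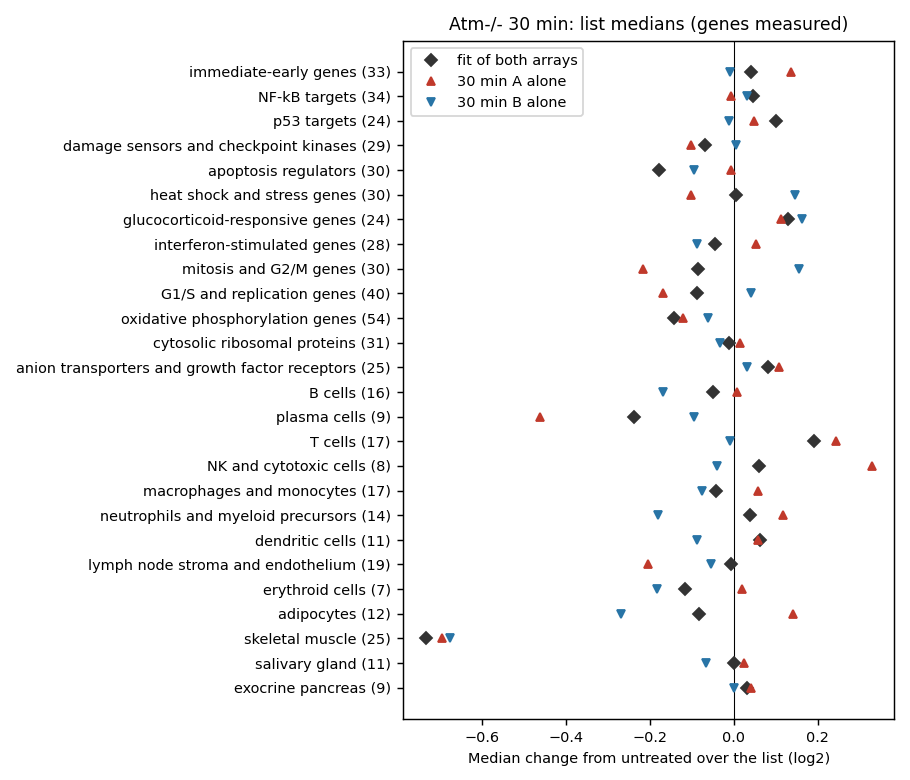
Median change from untreated (log2, x axis) over each of 26 lists (y axis, number of genes measured in parentheses), from the fit of both irradiated Atm-/- arrays (diamonds) and from replicate A alone (upward triangles) or B alone (downward triangles). Most medians lie within 0.2 of 0 and the triangles often fall on opposite sides of it (mitosis and G2/M: -0.22 and 0.16), while skeletal muscle lies near -0.7 on both.

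Marker genes were counted on each array. On each of the 5 arrays 0 to 2 of 16 B cell markers were below an intensity of 32, as were 2 to 6 of 17 T cell markers. Glycam1, a mucin of the venules through which lymphocytes enter the node, had 694.3, 440.8 and 876.5 untreated and 316.0 and 359.5 at 30 min (change -0.88, adjusted p 0.501, limma), lower on both irradiated arrays. It had the largest change of the 19 stroma and endothelium genes. Their median change was -0.01, with 9 changes above 0 and 10 below, and 0 higher and 4 lower on both arrays. None of the 11 salivary gland markers was below 32 on any of the 5 arrays. Their summed intensity was 66735, 88704 and 84513 untreated and 115836 and 91412 at 30 min, above all untreated arrays on both. Their median change was 0.00 after quantile normalization but 0.40 on the deposited scaling alone, so no direction is given for them. No list member had an intensity of 0.

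Skeletal muscle markers were the list that stood farthest from 0. The median change of its 25 genes was -0.73, with 1 higher and 6 lower on both irradiated arrays. Its mean log2 level was 8.07, 6.98 and 8.23 on untreated A, B and C and 7.13 and 7.16 at 30 min, and 6.41 to 7.16 on the WT arrays. Untreated A and C were thus high, and the irradiated arrays lay just above untreated B. Myh1, a fast muscle myosin, had 320.0, 33.6 and 430.9 untreated and 39.7 and 54.6 at 30 min. Mylpf, a muscle myosin light chain, had 297.8, 196.1 and 304.8 untreated and 60.5 and 124.7 at 30 min, a change of -1.35 ± 0.33 (adjusted p 0.354, limma). Cox6a2, the muscle form of a cytochrome oxidase subunit in the oxidative phosphorylation list, followed the same order, with 353.9, 28.9 and 570.3 untreated and 79.8 and 113.2 at 30 min. The part of muscle content in the oxidative phosphorylation changes was not tested. In bulk tissue, fewer cells of a type and less RNA per cell cannot be told apart.

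Lymphocyte and myeloid markers showed medians nearer 0. The 16 B cell genes had a median of -0.05, the 17 T cell genes 0.19 and the 17 macrophage genes -0.04. Each turned sign between the arrays, with the B cell median at 0.01 on A and -0.17 on B, the T cell median at 0.24 and -0.01 and the macrophage median at 0.06 and -0.08. The 9 plasma cell genes had a median of -0.24 (-0.46 on A and -0.10 on B), with 0 higher and 3 lower. Jchain, which joins secreted antibody chains, had 548.8, 1155.8 and 906.9 untreated, 286.2 on A and 557.4 on B (change -1.03, adjusted p 0.444, limma). By deposited intensity B lay just above untreated A, but by normalized value Jchain is among the 3 lower genes. The medians of the other 7 marker lists (NK cells, neutrophils, dendritic cells, stroma, erythroid cells, adipocytes and exocrine pancreas) lay between -0.12 and 0.06. That range hides differences between the arrays: the NK cell median was 0.33 on A and -0.04 on B, that of adipocytes 0.14 and -0.27, and that of neutrophils 0.12 and -0.18.

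**Figure D5:**
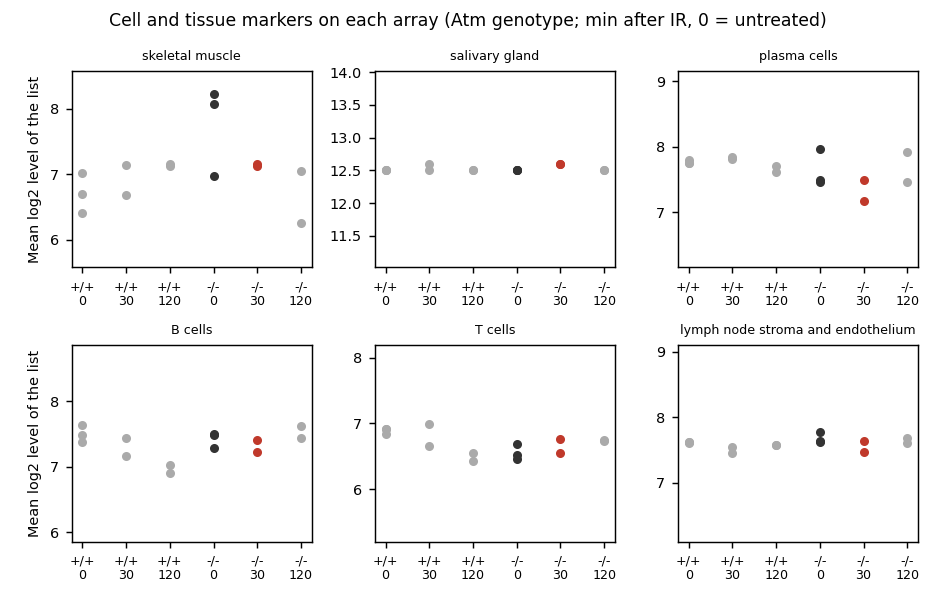
Mean log2(intensity + 32) level after quantile normalization (y axis) of 6 marker lists on each array, by Atm genotype and minutes after IR (x axis, 0 = untreated), with 1 point per array, irradiated Atm-/- arrays at 30 min in red and untreated Atm-/- arrays in black. Skeletal muscle is high on 2 of the 3 untreated Atm-/- arrays (8.07 and 8.23) and at 7.13 and 7.16 on the irradiated ones.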

How the data were processed

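The authors deposited 1 table of linear fluorescence intensities for 14 Affymetrix arrays, which is the only measurement used. It was made with software and settings not given in the sources used here. By its values, each array had been scaled to a mean of 150.1 over all but the highest and lowest 2% of values. Groups, times and replicate letters came from the sample titles. Of 12488 probe sets, 66 controls were left out. Intensities were taken as log2(value + 32) and quantile normalized between arrays. limma 3.58.1 in R 4.3.3 (statmod 1.5.0) was fitted to 6 group means with 8 residual and 3.93 prior degrees of freedom. The comparisons were 30 min and 120 min against untreated KO, 30 min against untreated WT, and the difference between the 2 responses at 30 min. The code was tested on simulated data. For arrays, their number limits the precision.

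Gene names came from the platform annotation: 10833 probe sets had 1 gene, 396 several and 1193 none. Named genes were Atm, the 12 higher and 12 lower genes of smallest p whose groups did not overlap, the 8 genes called in WT and 7 later targets, the members of largest change in each list and the genes of largest difference between the irradiated replicates. From the last 2 groups only examples are printed, chosen with their values seen. The arrays compared, the genes and the lists were chosen with earlier results of these data known. Alternatives covered the offset, the scaling, a filter on low values, the arrays in the fit, array weights, the variance trend, the replicate letter as a block, and each array left out. A term for skeletal muscle content was added after seeing the data. Replicate letters share only a label: deviations of same-lettered untreated and 30-min KO arrays correlated at 0.003 (A) and -0.044 (B).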

Additional observations from a re-analysis of the deposited data

Results flagged for a closer look

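The 30-min responses of KO and WT differed for 6 probe sets, with limma and an adjusted p under 0.05. The KO response was lower for Ier3 by -2.31 (log2), Fos by -2.63, Cxcl1 by -2.89, Dusp1 by -1.87 (-1.865) and Nfkbia by -1.43 (-1.432). It was higher for Barx1, by 1.91, on a probe set that another probe set for the gene did not follow in KO (change -0.34).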

How the results depend on the processing

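No called value changed sign under the alternatives run. The count of 0 called probe sets in KO at 30 min became 3 (Met, Tbcel and Aplnr) with a floor of 32 in place of the offset, and ranged from 0 to 443 when each array was left out. It was 443 without 30-min replicate B and 1 (Slc26a2) without either WT 120-min array. With the replicate letter as a block it stayed 0, with 957 at an unadjusted p under 0.05. That number was 629 with array weights, 809 in the fit of the groups compared alone and 750 of 8916 probe sets after the filter on low values. The 6 called differences of response became 2 with an offset of 16, 10 with the floor of 32, 2 with only the groups compared, 3 with the replicate block, 3 with array weights and 2 with the added term for skeletal muscle. They ranged from 0 (without WT 30-min replicate A) to 95 (without KO 30-min replicate B). The counts at 120 min in KO ranged from 0 to 16, with 16 without its replicate B and 1 without untreated replicate B, and those in WT at 30 min from 5, without its replicate B, to 9. The cause was not tested. The median difference between irradiated KO replicates of 0.308 was 0.333 on the deposited scaling, 0.376 with an offset of 16 and 0.234 with one of 64, where the untreated pairs had 0.199 to 0.217, 0.242 to 0.263 and 0.149 to 0.163. List medians moved by more than their spread in 34 of 208 cases. Array weights were 0.548 for both irradiated KO arrays, since 2 arrays of a group cannot be weighted apart.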
